A study of Oryza sativa Japonica Group with 64 samples.

Results

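OsMST3 to OsMST8 are 6 rice genes for monosaccharide transporters, proteins of the plasma membrane that carry glucose and related hexoses into cells together with protons. They were taken by their locus identifiers, which are LOC_Os07g01560 for OsMST3, LOC_Os03g11900 for OsMST4, LOC_Os08g08070 for OsMST5, LOC_Os07g37320 for OsMST6, LOC_Os01g38680 for OsMST7 and LOC_Os01g38670 for OsMST8. All 6 were among the 55986 genes listed for each tissue. All 6 had enough reads to be tested in anthers, beside 25203 tested genes in all, and 3 of them, OsMST3, OsMST4 and OsMST6, in flag leaves, beside 22095. OsMST7 and OsMST8 have neighbouring locus numbers on chromosome 1.

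Sucrose made in leaves moves to the anther, where cell wall invertases split it into glucose and fructose, and monosaccharide transporters then bring these hexoses into the tapetum and the pollen. CSA, for Carbon Starved Anther, is a MYB transcription factor of the anther, and in earlier work it was found at the promoter of OsMST8. The csa mutant accumulates sugar in its leaves, lacks it in its anthers, and is male sterile in short days and largely fertile in long days. OsMST5 is known from panicles and pollen, OsMST8 from anthers, OsMST4 and OsMST6 from seeds and other importing organs, and OsMST3 from leaves, roots and thickening cell walls. Little is known of OsMST7.

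RNA was sequenced from flag leaves and anthers of field-grown japonica rice, cultivar 9522, when the anthers had reached stage 12. Wild type (WT) and csa plants were kept either in the natural long day of about 14.5 h of light (LD) or in a short day of 12 h (SD) made by covering the plots overnight with lightproof film, so that day length and covering cannot be told apart. Leaves were taken every 4 h around the clock beginning at 08:00, which gives 6 times, and anthers at 16:00 and 04:00, with 2 biological replicates of each genotype, photoperiod and time, which makes 48 leaf and 16 anther libraries. The labels do not give the kind of mutation in csa. All 4 groups share the cultivar, the field and the stage, and nothing in the labels says how many plants were pooled in a library.

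The anther libraries held 18.05 M to 25.96 M reads in genes and the leaf libraries 12.91 M to 20.45 M. Levels are given as CPM, which are read counts scaled to a common library size after adjustment by the trimmed mean of M-values. Differences are log2 fold changes with standard errors from edgeR's quasi-likelihood test, and a gene is said to rise or fall where its Benjamini-Hochberg adjusted p over all tested genes was below 0.05. The CSA transcript reached 102 ± 16.8 CPM in WT anthers in SD and 120 ± 22.1 in csa in SD. In LD it reached 66.8 ± 19.4 in WT and 177 ± 56.9 in csa (standard deviation, written SD beside an n, n = 4 each). Between csa and WT it was not called in SD. It rose in csa in LD, where 35.2% of all genes were called. The genotype difference of CSA also changed with the photoperiod, where 17.8% of all genes were called. An anther n of 4 joins both collection times, so its spread includes the time of day. Over 8 genes that separated the genotypes in anthers and in LD leaves, the 4 leaf libraries labelled SD 12:00 lay on the side of the other genotype in 31 of 32 values, against 3 of 160 in the 20 other SD leaf libraries. For the transporters, leaf genotype differences and amplitudes of the daily course are therefore given with and without the libraries of 12:00. Tapetum and pollen wall markers summed to between 1830 and 9130 CPM in an anther library and between 2.49 and 9.07 CPM in a leaf library. Photosynthetic markers summed to between 526 and 3350 CPM in the former and between 21100 and 204000 CPM in the latter. In whole organs, fewer cells of a type and less RNA per cell cannot be told apart.

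Leaf levels separated the 6 genes into 2 kinds. OsMST8 had 0 counts in all 48 leaf libraries, which allows a level of up to 0.147 to 0.232 CPM in a single leaf library and 0.004 CPM over all of them, whereas every anther library held at least 89.1 CPM of it. OsMST7 was at 0 in 39 of the 48 leaf libraries, with 21 counts in all, and its highest leaf value was 0.492 CPM from 8 counts in a WT library of SD 16:00. OsMST5 had 81 counts over all leaf libraries and never more than 5 in a library. These 3 transporters were thus at or near the counting floor in leaves. Their anther levels ranged from 0.315 to 45.3 CPM for OsMST5, from 1.86 to 81.5 CPM for OsMST7 and from 89.1 to 469 CPM for OsMST8. The lowest anther value of OsMST5, from 6 counts, lay below its highest leaf value of 0.321 CPM, so its tissue ranges overlapped.

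The other 3 were found in both tissues. In leaves OsMST3 lay between 15.6 and 77.8 CPM, OsMST4 between 10.7 and 628 CPM and OsMST6 between 13.1 and 164 CPM. In anthers OsMST3 lay between 1.52 and 8.31 CPM, OsMST4 between 2.15 and 16.9 CPM and OsMST6 between 5.84 and 52.5 CPM. The leaf and anther libraries were scaled separately, so these ranges stand side by side with no test. The ranges of OsMST3 did not overlap between tissues, while those of OsMST4 and OsMST6 did. Levels are compared here within a gene and not between genes, since no transcript lengths were used.

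**Figure D1:**
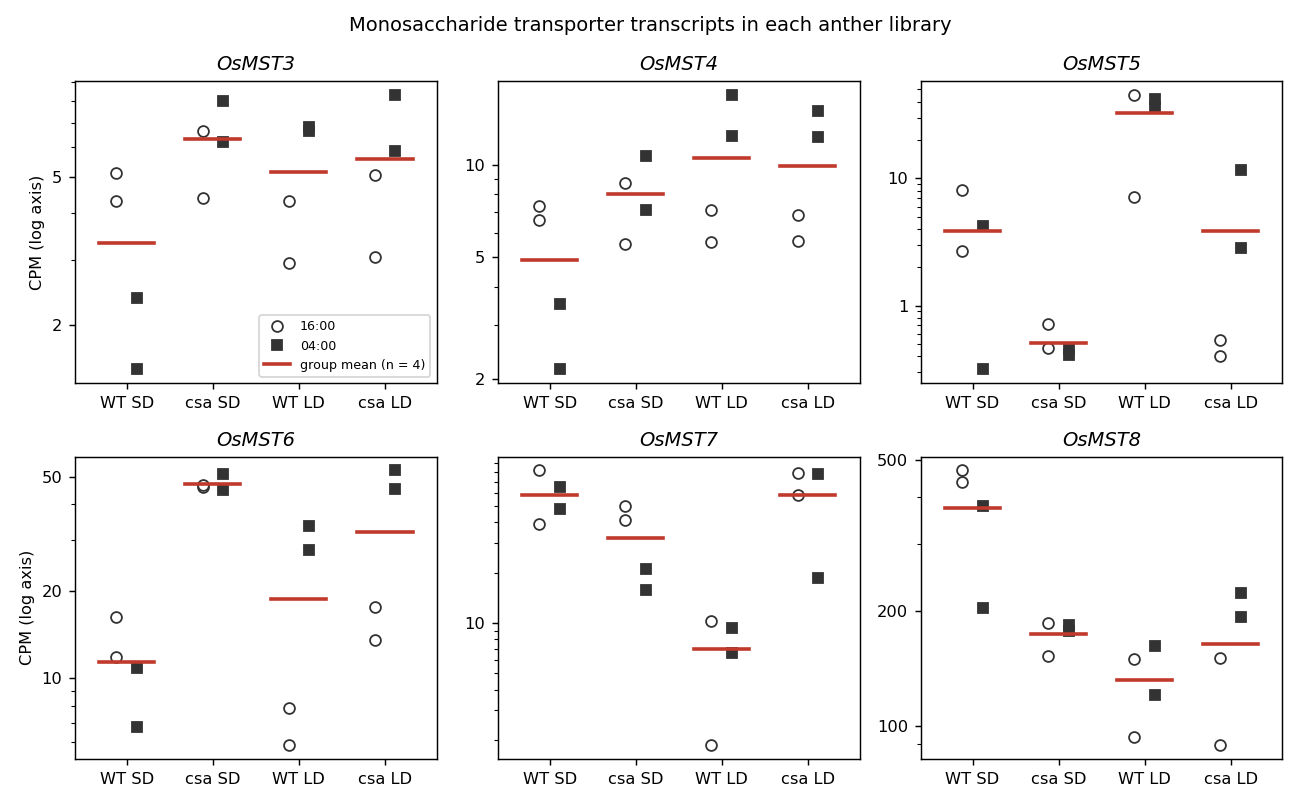
CPM (log axis) of each of the 6 transporters in every anther library, by genotype and photoperiod; open circles are libraries of 16:00, filled squares libraries of 04:00, and bars the group means of 4. OsMST6 lies between 44.9 and 51.0 CPM in all 4 csa libraries of SD and at most at 16.3 CPM in WT in SD, and OsMST7 lies at 1.86 to 10.3 CPM in WT in LD and at 15.8 CPM or more in the other 3 groups.

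In the anther, csa in SD differed from WT in SD in 5 of the 6 transporters, of which OsMST3, OsMST4 and OsMST6 rose and OsMST5 and OsMST8 fell. Of all tested genes 47.5% were called in this comparison, so a called gene was not rare in it. In LD, 35.2% of genes were called between csa and WT, and 3 of the transporters were, with OsMST6 and OsMST7 higher and OsMST5 lower in csa. The genotype difference itself changed with the photoperiod for OsMST6, OsMST7 and OsMST8, where 17.8% of all genes were called.

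OsMST8, the transporter tied to CSA in earlier work, was highest in WT anthers in SD. Its levels there were 469 and 438 CPM at 16:00 and 204 and 379 CPM at 04:00, and in csa in SD they were 153 and 186 CPM at 16:00 and 178 and 184 CPM at 04:00. No csa library in SD reached the lowest WT library. The mean fell from 373 ± 119 to 175 ± 15.1 CPM (SD, n = 4), a log2 fold change of −1.05 ± 0.22 (SE, edgeR adjusted p = 0.0025). In LD the WT libraries held 150 and 93.6 CPM at 16:00 and 121 and 162 CPM at 04:00, and the csa libraries 151 and 89.1 CPM at 16:00 and 224 and 193 CPM at 04:00. These LD groups overlapped, with a difference of 0.27 ± 0.22 on the log2 scale (adjusted p = 0.371). The genotype difference itself was lower in SD than in LD, by a log2 value of −1.32 ± 0.31 (adjusted p = 0.0165).

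Seen from the photoperiod, OsMST8 was 2.77-fold higher in WT in SD than in WT in LD (log2 fold change 1.47 ± 0.22, adjusted p = 0.00118), with no overlap between the libraries of the 2 photoperiods. In csa the same comparison gave 0.15 ± 0.22 (adjusted p = 0.676), where 15.5% of all genes were called against 28.9% in WT. The order of group means was thus WT in SD, then csa in SD, csa in LD and WT in LD, and the last 3 did not differ beyond their spread in the comparisons made. Within SD the csa and WT libraries were further apart at 16:00 (−1.42 ± 0.32, adjusted p = 0.0039) than at 04:00 (−0.69 ± 0.31, adjusted p = 0.0964), but the difference between these times did not pass the test (0.73 ± 0.44, adjusted p = 0.220). Of all genes 41.9% were called at SD 16:00 and 41.5% at SD 04:00. WT SD 04:00 replicate 1, at 204 CPM, lay closest to the mutant, and without it the 04:00 difference was called (−1.07, adjusted p = 0.0241), as it was by DESeq2 (adjusted p = 0.0384). Without WT SD 04:00 replicate 2 the difference between the times was called (1.25, adjusted p = 0.0431).

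OsMST7, the neighbour of OsMST8 by locus number, followed another order. WT in LD stood apart with 10.3 and 1.86 CPM at 16:00 and 9.35 and 6.63 CPM at 04:00, whereas csa in LD held 58.4 and 78.5 CPM at 16:00 and 77.9 and 18.5 CPM at 04:00. The lowest csa library lay above the highest WT library. The mean was 7.03 ± 3.77 CPM in WT and 58.3 ± 28.1 CPM in csa (SD, n = 4), and the rise of 3.04 ± 0.51 log2 units passed the test (adjusted p = 0.00123). It lay between 2.29 without csa LD 04:00 replicate 1 and 3.89 without WT LD 16:00 replicate 1, and was called in every case. By time, OsMST7 was higher in csa at LD 16:00 (3.49 ± 0.74, adjusted p = 0.0088), where 20.7% of all genes were called, and at LD 04:00 (2.59 ± 0.71, adjusted p = 0.0313), where 16% were. The 16:00 call was lost without replicate 2 of WT or of csa at LD 16:00 (2.74 and 3.26, adjusted p = 0.0667 and 0.0625). The 04:00 call was lost without either WT library or without csa replicate 1 of LD 04:00 (1.16 to 2.80, adjusted p = 0.112 to 0.293).

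In SD the WT libraries of OsMST7 held 81.5 and 38.9 CPM at 16:00 and 47.8 and 64.5 CPM at 04:00, and those of csa 41.3 and 50.2 CPM at 16:00 and 21.1 and 15.8 CPM at 04:00. These groups overlapped, and the difference of −1.0 ± 0.47 did not pass the test (adjusted p = 0.0966). It passed without either WT library of LD 16:00 or without csa LD 04:00 replicate 1, at an adjusted p of 0.0413 to 0.0454, although none of those libraries enters the difference. By time, csa against WT in SD gave −0.39 ± 0.65 at 16:00 (adjusted p = 0.658) and −1.60 ± 0.67 at 04:00 (adjusted p = 0.0747). The libraries overlapped at SD 16:00 and not at SD 04:00. Between SD and LD the genotype difference of OsMST7 changed by −4.04 ± 0.69 log2 units (adjusted p = 0.00596). Between photoperiods OsMST7 rose by 3.06 ± 0.51 in WT in SD over LD (adjusted p = 0.00181), while csa gave −0.98 ± 0.47 (adjusted p = 0.166). OsMST7 and OsMST8 therefore shared the higher level in WT in SD than in LD, and differed in that csa in LD held a high level of OsMST7 and not of OsMST8. The sources used here do not say how reads that match several similar genes were counted, so reads of such neighbours and of other family members may have been split between them.

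OsMST5, the transporter known from pollen, was highest in WT anthers in LD. Its levels there were 7.09 and 45.3 CPM at 16:00 and 36.0 and 42.1 CPM at 04:00, against 0.536 and 0.404 CPM at 16:00 and 11.7 and 2.86 CPM at 04:00 in csa in LD. The csa library at 11.7 CPM exceeded the lowest WT library, so the groups overlapped by a single library. The difference was −4.10 ± 0.77 log2 units (adjusted p = 0.00215). In SD the WT libraries held 2.70 and 8.10 CPM at 16:00 and 4.22 and 0.315 CPM at 04:00, and the 4 csa libraries 0.410 to 0.722 CPM, from 8 to 14 counts each. The lowest WT library, at 0.315 CPM, lay below all 4 csa libraries, and the other 3 WT libraries lay above them.

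The fall of OsMST5 in csa in SD (−2.82 ± 0.87, adjusted p = 0.019) is less firm than the fall in LD. It was lost without WT SD 16:00 replicate 2, WT SD 04:00 replicate 1, csa SD 16:00 replicate 2 or either csa library of SD 04:00, at adjusted p values of 0.0531 to 0.371, and without WT SD 04:00 replicate 1 the difference was −1.40. The LD fall was called whichever library was left out, and ran from −3.16 without WT LD 16:00 replicate 2 to −4.85 without csa LD 04:00 replicate 1. Both falls are averages over the 2 times. In LD the fall was called at 16:00 (−5.79 ± 1.23, adjusted p = 0.0091), where 20.7% of all genes were. At LD 04:00, where 16% were, it was not (−2.42 ± 0.92, adjusted p = 0.0909). Without WT LD 16:00 replicate 2 the 16:00 difference was −3.9. In SD the fall was −3.21 ± 1.19 at 16:00 (adjusted p = 0.0469) and −2.44 ± 1.27 at 04:00 (adjusted p = 0.143). In WT, OsMST5 was lower in SD than in LD, with a log2 fold change of −3.15 ± 0.69 (adjusted p = 0.00658). The means were 3.83 ± 3.27 and 32.6 ± 17.5 CPM (SD, n = 4). That fall was −4.59 without WT SD 04:00 replicate 1 and −2.21 without WT LD 16:00 replicate 2, and was called in both cases. The interaction of genotype and photoperiod was 1.28 ± 1.23 and did not pass the test (adjusted p = 0.498).

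Most late pollen markers fell in csa, as OsMST5 did. The sum of 5 such markers ranged from 173 to 520 CPM in WT in LD, from 25.8 to 146 CPM in WT in SD, from 2.17 to 84.6 CPM in csa in LD and from 1.14 to 1.63 CPM in csa in SD. In csa against WT 5 of the 5 fell in LD and 4 of the 5 in SD, where 35.2% and 47.5% of all genes were called. In WT, 1 of the 5 fell in SD against LD, where 28.9% of all genes were called, although the sums did not overlap. In csa in LD none of the 5 was called between the times, where 19.7% of all genes were. OsMST5 was called in both of these comparisons, but its call between the times was lost with the replicate number as a block. No late pollen marker was at 0 in all anther libraries. The 15 tapetum and pollen wall markers summed to 4400 to 9130 CPM in WT and 1930 to 3290 CPM in csa in SD, where 12 fell and none rose, and to 3160 to 5040 CPM in WT and 1830 to 4680 CPM in csa in LD, where 4 rose and 5 fell. Their part in the results for OsMST5 and OsMST8 was not tested.

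OsMST6, a hexose transporter with a broad range of substrates, rose in csa in both photoperiods. In SD the WT libraries held 16.3 and 11.8 CPM at 16:00 and 10.8 and 6.73 CPM at 04:00, and the csa libraries 46.0 and 46.7 CPM at 16:00 and 44.9 and 51.0 CPM at 04:00. The groups did not overlap and the csa libraries lay close together. The mean rose from 11.4 ± 3.93 to 47.1 ± 2.65 CPM (SD, n = 4), a log2 fold change of 2.08 ± 0.17 (adjusted p = 6.92e-06). In LD the WT libraries held 5.84 and 7.85 CPM at 16:00 and 33.6 and 27.9 CPM at 04:00, against 17.6 and 13.5 CPM and 52.5 and 45.1 CPM in csa. The csa libraries were higher at each time, although the LD groups overlapped over both times, and the rise was 0.93 ± 0.17 (adjusted p = 0.00167). By time it was called at LD 16:00 (1.18 ± 0.24, adjusted p = 0.0078), where 20.7% of all genes were, and not at LD 04:00 (0.67 ± 0.23, adjusted p = 0.0645), where 16% were. The LD 04:00 difference passed with DESeq2 (adjusted p = 0.0428) and without WT SD 04:00 replicate 1 or replicate 2 (adjusted p = 0.0418 and 0.041), which do not enter it.

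The rise of OsMST6 in csa was larger in SD than in LD by 1.16 ± 0.23 log2 units (adjusted p = 0.00945). In csa its level was also higher in SD than in LD (0.77 ± 0.16, adjusted p = 0.0105). It was the single transporter of the 6 called there, where 15.5% of all genes were called. Its mean in csa was 46.3 CPM in SD and 15.6 CPM in LD at 16:00, and 48 CPM in SD and 48.8 CPM in LD at 04:00 (n = 2 each), so the photoperiods were apart at 16:00 and level at 04:00, without a test at each time. In WT the same comparison gave −0.38 ± 0.17 (adjusted p = 0.106), and −0.57 with an adjusted p of 0.0282 without WT SD 04:00 replicate 1. OsMST6 also depended on the time of day in LD, where it was higher at 04:00 than at 16:00 by 2.17 ± 0.24 in WT (adjusted p = 0.00021) and by 1.65 ± 0.23 in csa (adjusted p = 0.0009). In SD it was 0.05 ± 0.22 in csa (adjusted p = 0.914) and −0.67 ± 0.24 in WT (adjusted p = 0.0505). The WT difference passed with another scaling of library sizes (0.0439), with DESeq2 (0.0184) and with the replicate number as a block (0.0447). It also passed without WT SD 16:00 replicate 2 (0.0474), without WT SD 04:00 replicate 1 (0.0255) or without any of 7 LD libraries, which do not enter it.

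OsMST3 and OsMST4 moved together in SD. OsMST3 held 5.13 and 4.31 CPM at 16:00 and 2.37 and 1.52 CPM at 04:00 in WT, and 6.65 and 4.38 CPM at 16:00 and 8.01 and 6.2 CPM at 04:00 in csa. OsMST4, a transporter of glucose and other hexoses, held 6.58 and 7.31 CPM at 16:00 and 2.15 and 3.52 CPM at 04:00 in WT, and 8.71 and 5.51 CPM at 16:00 and 10.7 and 7.13 CPM at 04:00 in csa. The genotypes overlapped at 16:00 and not at 04:00 for both genes. Averaged over the times the rise in csa was 1.04 ± 0.23 for OsMST3 (adjusted p = 0.0036) and 0.85 ± 0.21 for OsMST4 (adjusted p = 0.007).

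The rise of OsMST3 and OsMST4 in SD lay at 04:00. There it was 1.85 ± 0.34 for OsMST3 (adjusted p = 0.00149) and 1.67 ± 0.31 for OsMST4 (adjusted p = 0.00169). At 16:00 it was 0.22 ± 0.32 for OsMST3 (adjusted p = 0.611) and 0.03 ± 0.30 for OsMST4 (adjusted p = 0.949). The difference between the times passed the test for both, at 1.63 ± 0.46 for OsMST3 (adjusted p = 0.0181) and 1.64 ± 0.43 for OsMST4 (adjusted p = 0.0119), in a comparison where 34.9% of all genes were called. These 2 calls rest on few libraries. That of OsMST3 was lost without WT SD 04:00 replicate 2, csa SD 16:00 replicate 2 or csa SD 04:00 replicate 1 (adjusted p = 0.062 to 0.0746), and that of OsMST4 without WT SD 04:00 replicate 1, csa SD 16:00 replicate 2 or csa SD 04:00 replicate 1 (adjusted p = 0.0515 to 0.058).

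In SD, photosynthetic markers moved in the same way. Their sum over 6 genes was 526 to 640 CPM in WT SD 04:00 and 1830 to 2620 CPM in csa SD 04:00, against 1860 to 2830 and 2870 to 3350 CPM at 16:00. All 6 rose in csa at SD 04:00, where 41.5% of all genes were called. At SD 16:00, where 41.9% of all genes were called, none of the 6 was, although their sums did not overlap between the genotypes. All 6 were called for the difference between the times, where 34.9% of all genes were. In LD, OsMST4 was higher at 04:00 than at 16:00 in both genotypes. The marker sum there was 1240 to 1810 CPM at 16:00 and 1180 to 1510 CPM at 04:00 in WT. In csa in LD it was 1360 to 1560 CPM at 16:00 and 1350 to 2070 CPM at 04:00. The part of these markers in the results for OsMST3, OsMST4 and OsMST6, which leaves also express, was not tested. OsMST6 rose in csa at SD 16:00 as well (1.72 ± 0.24, adjusted p = 0.000227).

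In LD neither gene differed between genotypes. OsMST3 held 2.94 and 4.32 CPM at 16:00 and 6.79 and 6.63 CPM at 04:00 in WT, and 3.05 and 5.05 CPM and 5.87 and 8.31 CPM in csa, a difference of 0.12 ± 0.23 (adjusted p = 0.716). OsMST4 held 7.09 and 5.59 CPM at 16:00 and 16.9 and 12.4 CPM at 04:00 in WT, and 5.62 and 6.87 CPM and 12.3 and 15.0 CPM in csa, a difference of −0.06 ± 0.21 (adjusted p = 0.842). All libraries of OsMST4 at LD 04:00 lay above all at LD 16:00. The interaction of genotype and photoperiod was 0.92 ± 0.33 for OsMST3 (adjusted p = 0.0702) and 0.91 ± 0.30 for OsMST4 (adjusted p = 0.0534) and passed for neither. It passed for OsMST3 without csa LD 16:00 replicate 2 (1.12, adjusted p = 0.0411). For OsMST4 it passed by DESeq2 (0.0248) and without WT SD 04:00 replicate 2, csa SD 16:00 replicate 2 or csa SD 04:00 replicate 2 (0.0356 to 0.0477).

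The daily direction of OsMST4 in WT anthers was opposite in the 2 photoperiods. It was lower at 04:00 than at 16:00 in SD (−1.31 ± 0.31, adjusted p = 0.0095), where 29.9% of all genes were called, and higher at 04:00 in LD by 1.20 ± 0.30 (adjusted p = 0.024), where 11% were. The SD fall was lost without WT SD 16:00 replicate 2 or WT SD 04:00 replicate 1 (adjusted p = 0.0543 and 0.0959) and the LD rise without WT LD 16:00 replicate 2 or WT LD 04:00 replicate 1 (adjusted p = 0.139 and 0.162). OsMST3 fell at 04:00 in WT in SD as well (−1.26 ± 0.34, adjusted p = 0.0169), which was lost without WT SD 16:00 replicate 1 or WT SD 04:00 replicate 2 (adjusted p = 0.0719 and 0.099). In csa in SD none of the 6 transporters was called between the times, where 15.5% of all genes were. In csa in LD, where 19.7% were, OsMST4 (1.12 ± 0.30, adjusted p = 0.0207), OsMST5 (3.94 ± 1.23, adjusted p = 0.0422) and OsMST6 were higher at 04:00. The call of OsMST4 was lost without csa LD 16:00 replicate 1, csa LD 16:00 replicate 2 or csa LD 04:00 replicate 2 (adjusted p = 0.0686 to 0.112), and that of OsMST5 with the replicate number as a block (adjusted p = 0.0585). The call of OsMST5 was also lost without any of the 4 csa libraries of SD, either WT library of LD 04:00, either csa library of LD 16:00 or csa LD 04:00 replicate 1, at 2.65 to 4.15 log2 units and adjusted p values of 0.0533 to 0.246.

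Between photoperiods in WT, OsMST3 and OsMST4 were lower in SD than in LD. The difference was −0.69 ± 0.23 for OsMST3 (adjusted p = 0.0442), with means of 3.33 ± 1.67 and 5.17 ± 1.87 CPM, and −1.12 ± 0.21 for OsMST4 (adjusted p = 0.00344), with means of 4.89 ± 2.46 and 10.5 ± 5.16 CPM (SD, n = 4). The groups overlapped for both genes. That of OsMST3 was lost with the replicate number as a block (adjusted p = 0.0593) and without WT SD 16:00 replicate 1 or 2, WT SD 04:00 replicate 2, csa SD 04:00 replicate 1 or 2, WT LD 16:00 replicate 2 or WT LD 04:00 replicate 1 or 2, at adjusted p values of 0.0543 to 0.153. In WT, then, OsMST3, OsMST4 and OsMST5 were lower in SD and OsMST7 and OsMST8 higher, 5 calls of 6 where 28.9% of all genes were called.

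**Figure D2:**
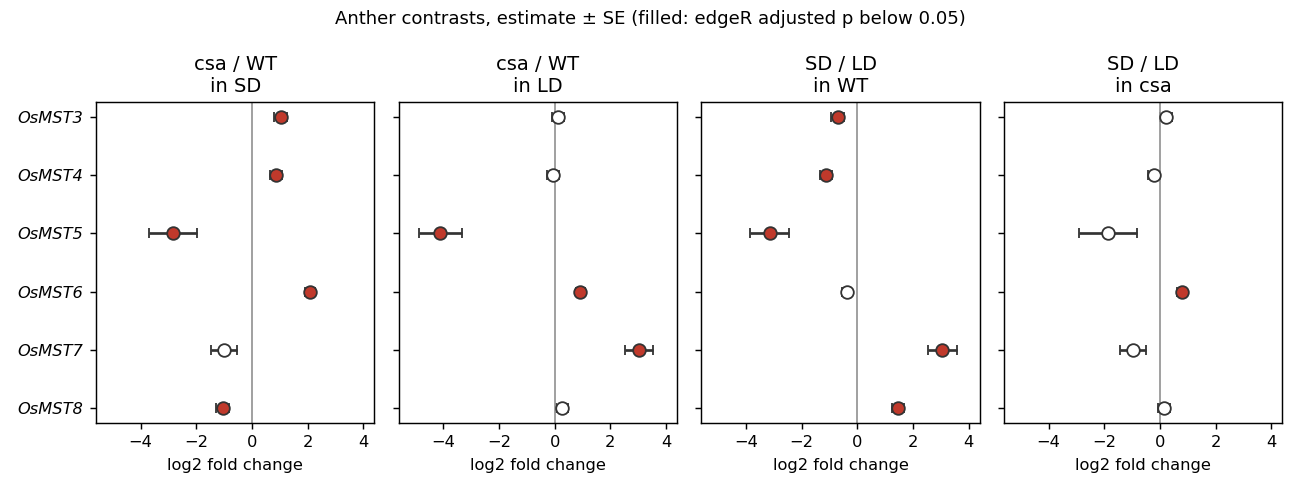
Log2 fold changes of the 6 transporters in anthers for csa over WT and for SD over LD; points are edgeR estimates averaged over both times, bars are standard errors, and filled points passed an adjusted p of 0.05. OsMST7 and OsMST8 stand at 3.06 and 1.47 for SD over LD in WT, and OsMST7 turns from −1.0 in SD to 3.04 in LD for csa over WT.

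The members did not form a single pattern across the 16 anther libraries. The closest pair was OsMST3 and OsMST4, with Pearson r = 0.84 of log2 CPM, then OsMST3 and OsMST6 at 0.78 and OsMST4 and OsMST6 at 0.61, while OsMST7 and OsMST8 reached 0.49 and OsMST5 and OsMST7 −0.65. These values describe libraries that share genotype, photoperiod and time, and carry no test. A list of 39 other genes held CSA itself and genes of sugar import and use. Among these, OsMST5 was most like OsVIN1, a vacuolar invertase, and OsSUT3, a sucrose transporter, at r = 0.98 each. Of 25202 tested genes, 322 had r above 0.9 with OsMST5. OsSUT3 averaged 15.7 ± 9.77 CPM in WT in LD and was at 0 in the csa libraries in SD, and OsVIN1 averaged 150 ± 59.3 CPM in WT in LD and 10.1 ± 2.07 CPM in csa in SD (SD, n = 4).

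OsMST7 was most like CSA (r = 0.77) and OsSWEET11 (r = 0.69), a sucrose exporter of the SWEET family, and 45 genes had r above 0.9 with it. OsMST8 was not close to any of the list, its highest values being 0.41 with OsHXK10 and 0.39 with OsHXK2, both hexokinases, and 9 genes of the whole table had r above 0.9. OsMST6 was most like OsSWEET16 (r = 0.77) and OsSWEET1b (r = 0.74). OsMST4 was most like the cell wall invertase OsCIN7 (r = 0.77) and the vacuolar invertase OsVIN2 (r = 0.74), and OsMST3 most like OsSWEET14 (r = 0.74) and OsVIN2 (r = 0.64). The genes with the highest r among all tested genes, named by their identifiers, were LOC_Os05g51750 for OsMST5 (r = 0.99), LOC_Os09g32830 for OsMST7 (r = 0.98), LOC_Os05g45080 for OsMST4 (r = 0.97) and LOC_Os03g58050 for OsMST8 (r = 0.96).

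The other genes of the pathway moved in both directions in csa anthers. Of the 39, 35 were tested, and 11 rose and 10 fell in csa in SD, where 47.5% of all genes were called, with a median log2 fold change of 0.22 against 0.08 over all tested genes. OsSWEET5, of the sugar exporter family, fell (−5.43 ± 0.32, adjusted p = 9.99e-07), as did OsCIN3, a cell wall invertase (−5.02 ± 0.46, adjusted p = 1.35e-05), while the tonoplast sugar transporter OsTMT2 rose by 0.99 ± 0.11 (adjusted p = 4.45e-05). In LD, where 35.2% of all genes were called, 7 rose and 13 fell, and CSA was among those that rose. OsSWEET5 fell again (−4.23 ± 0.30, adjusted p = 6.53e-06) and the hexokinase OsHXK9 rose (1.26 ± 0.14, adjusted p = 0.000143). By kind, 5 of 11 tested SWEET genes rose and 4 fell in csa in SD, 2 of 5 cell wall invertases rose and 1 fell, and of 5 sucrose transporters 1 rose and 1 fell.

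The genotype difference changed with photoperiod in 9 of the 35, in a comparison that called 17.8% of all genes. Of these 5 were higher and 4 lower in SD than in LD, and CSA was among the lower. Examples are OsCIN3 (−3.70 ± 0.56, adjusted p = 0.0048) and OsSWEET14 (1.81 ± 0.38, adjusted p = 0.0113), beside OsMST7 at −4.04. In WT 3 were higher and 9 lower in SD than in LD, against 28.9% of all genes called. OsSUT1, a sucrose transporter, was lower (−2.16 ± 0.42, adjusted p = 0.00359) and OsSWEET11 higher by 0.76 ± 0.19 (adjusted p = 0.0131). In csa, against 15.5% of all genes called, 4 were higher and 3 lower, among them OsSWEET14 (1.21 ± 0.28, adjusted p = 0.0158) and OsCIN3 (−3.54 ± 0.43, adjusted p = 0.00119).

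In flag leaves, OsMST3, OsMST4 and OsMST6 followed the time of day in all 4 combinations of genotype and photoperiod, as did 67.7% of all tested genes in WT in SD, 70.3% in csa in SD, 71.3% in WT in LD and 66.5% in csa in LD. A cosine of 24 h was fitted, whose amplitude is the log2 distance from the daily mean to the peak. With all libraries OsMST4 had the widest course of the 3, with amplitudes of 1.23 in WT and 1.55 in csa in SD and 2.49 in WT and 2.38 in csa in LD, which are peak-to-trough ratios of 5.49, 8.52, 31.7 and 27.1. Its fitted peaks lay in the morning, at clock hours 8.71 and 9.02 in SD and 7.60 and 7.32 in LD.

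OsMST6 peaked later in the morning, at hours 11.3 and 10.8 in WT and csa in SD and 10.8 and 10.1 in LD, with amplitudes of 1.03, 1.09, 1.38 and 0.96. OsMST3 ran against both, with its peak in the late evening at hours 22.2 and 22.1 in SD and 22.6 and 21.7 in LD, and amplitudes of 0.94, 0.71, 0.60 and 0.68. Across the 48 libraries r was −0.65 between OsMST3 and OsMST4, −0.64 between OsMST3 and OsMST6 and 0.63 between OsMST4 and OsMST6. Adjusted p values of the daily course lay between 4.18e-11 and 0.00124 for the 3 genes. Without the libraries of 12:00 the courses were still called, except that of OsMST3 in WT in LD (amplitude 0.41, adjusted p = 0.0598). In WT SD, csa SD, WT LD and csa LD in turn, the amplitudes were then 1.16, 1.24, 2.50 and 2.41 for OsMST4 and 1.31, 1.16, 1.31 and 1.34 for OsMST6, so that OsMST6 had the wider course in WT in SD. Those of OsMST3 were 0.77 in WT and 0.68 in csa in SD and 0.69 in csa in LD.

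**Figure D3:**
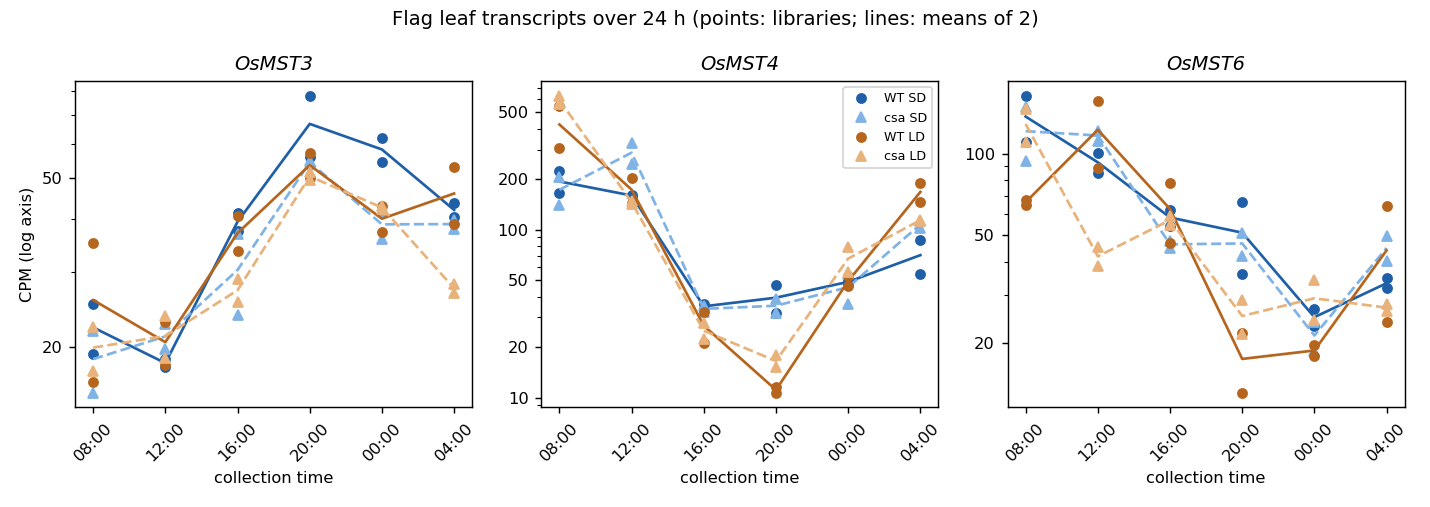
CPM (log axis) of OsMST3, OsMST4 and OsMST6 in every leaf library by collection time; circles are WT, triangles csa, blue SD, brown LD, and lines join the means of 2 libraries. OsMST4 falls from 305 to 628 CPM at LD 08:00 to 10.7 to 17.8 CPM at LD 20:00, and OsMST3 is highest at 20:00. Genotype labels at SD 12:00 lie on the side of the other genotype for marker genes.

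The levels of OsMST4 show its course. At 08:00 it held 141 to 223 CPM in the 4 SD libraries and 305 to 628 CPM in the 4 LD libraries, and at 20:00 31.7 to 47.0 CPM in SD and 10.7 to 17.8 CPM in LD. At both times the photoperiods did not overlap, and they differed in opposite directions. The difference was −1.45 ± 0.18 at 08:00 (adjusted p = 2.22e-07), with means of 183 ± 37.1 and 509 ± 141 CPM, and 1.46 ± 0.19 at 20:00 (adjusted p = 9.44e-07), with means of 37.3 ± 7.20 and 13.8 ± 3.29 CPM (SD, n = 4, both genotypes together). OsMST4 was also lower in SD at 04:00 (−0.67 ± 0.18, adjusted p = 0.00395), with 54.4 to 112 CPM against 113 to 190 CPM.

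At the other 3 times OsMST4 was not called between photoperiods. The difference was 0.43 ± 0.18 at 12:00 (adjusted p = 0.05, just above the threshold), 0.41 ± 0.19 at 16:00 (adjusted p = 0.0855) and −0.29 ± 0.18 at 00:00 (adjusted p = 0.216). At 12:00 the 4 SD libraries held 158 to 329 CPM and the LD libraries 143 to 203 CPM, and leaving out any of 26 of the 48 leaf libraries brought the difference past the threshold (adjusted p = 0.0247 to 0.049), of which csa SD 12:00 replicate 1 and WT LD 12:00 replicate 1 enter it. At 16:00 it passed without WT LD 16:00 replicate 2 (0.60, adjusted p = 0.0301). Between 32.3% and 45.3% of all genes were called at each time, at 36.6% for 08:00, 45.3% for 12:00, 39.4% for 16:00, 32.3% for 20:00, 39.4% for 00:00 and 38% for 04:00. Averaged over the 6 times the photoperiods did not separate OsMST4, with −0.05 ± 0.11 in WT (adjusted p = 0.744) and 0.01 ± 0.11 in csa (adjusted p = 0.960).

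The change in the course of OsMST4 with photoperiod passed the test in WT, with a distance between the fitted waves of 1.36 log2 units (adjusted p = 0.0085), where 14% of all genes were called. In csa the distance was 1.19 (adjusted p = 0.051), where 7.01% were. Without the libraries of 12:00 it was 1.17 in csa and passed (adjusted p = 0.0297), and it also passed with another scaling of library sizes (0.0416) and with DESeq2 (0.0173). It passed as well without any of 17 single leaf libraries (1.14 to 1.38, adjusted p = 0.0182 to 0.0491). OsMST3 and OsMST6 did not differ in course between photoperiods, with distances of 0.35 and 0.37 in WT (adjusted p = 0.290 and 0.658) and 0.08 and 0.24 in csa (adjusted p = 0.933 and 0.878).

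**Figure D4:**
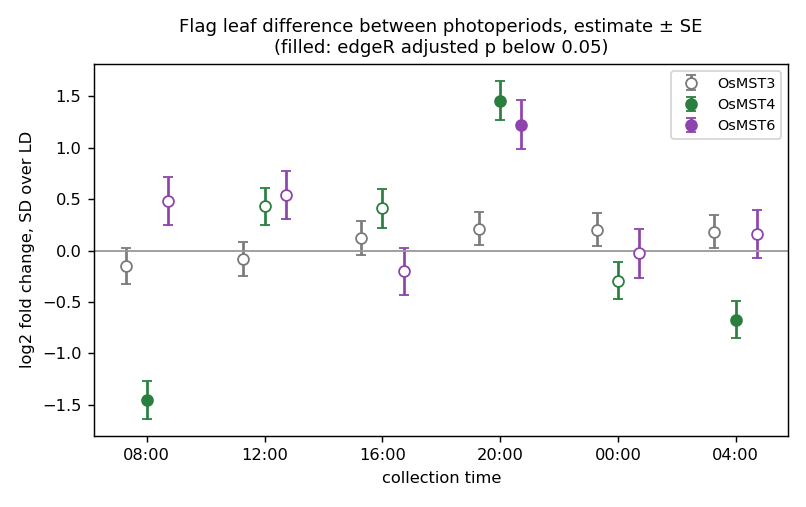
Log2 fold change of SD over LD in flag leaves at each collection time for OsMST3, OsMST4 and OsMST6; points are edgeR estimates over both genotypes, bars standard errors, and filled points passed an adjusted p of 0.05. OsMST4 turns from −1.45 at 08:00 to 1.46 at 20:00, OsMST6 is called at 20:00 alone, and OsMST3 at no time.

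OsMST6 was higher in SD leaves in the evening. At 20:00 its 4 SD libraries held 36.0 to 66.3 CPM and the LD libraries 13.1 to 28.8 CPM, with no overlap and a difference of 1.22 ± 0.24 (adjusted p = 0.000197). At 08:00 it was 0.48 ± 0.23 (adjusted p = 0.1) and at 12:00 0.54 ± 0.23 (adjusted p = 0.0564), with overlapping libraries. The difference at 12:00 passed without WT LD 12:00 replicate 2 or any of 7 libraries of other times (0.0152 to 0.0462), and that at 04:00 without WT LD 04:00 replicate 1 (0.61, adjusted p = 0.0419). At LD 12:00 the WT libraries held 88.8 and 157 CPM of OsMST6 and the csa libraries 45.1 and 38.5 CPM, whereas at SD 12:00 all 4 lay between 85.2 and 122 CPM. Over all times OsMST6 was slightly higher in SD, by 0.35 ± 0.13 in WT (adjusted p = 0.034), where 45.9% of genes were called, and by 0.38 ± 0.14 in csa (adjusted p = 0.0242), where 43.1% were. Without the libraries of 12:00 the WT difference was 0.49 (adjusted p = 0.0101) and the csa difference 0.15 (adjusted p = 0.472). The WT call was lost without any of 12 single WT libraries, 1 of each photoperiod and time (0.25 to 0.35, adjusted p = 0.0509 to 0.124). The csa call was lost without csa SD 08:00 replicate 1, SD 20:00 replicate 2, SD 00:00 replicate 2, LD 08:00 replicate 2, LD 20:00 replicate 1 or LD 00:00 replicate 1 (0.32 to 0.35, adjusted p = 0.051 to 0.0655).

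OsMST3 held 53.9 to 77.8 CPM in SD and 49.2 to 57.0 CPM in LD at 20:00, its highest time, and 17.9 to 22.6 CPM in SD and 18.1 to 23.6 CPM in LD at 12:00. The photoperiods overlapped at each of the 6 times, and no difference was called. Averaged over the day it differed by 0.08 ± 0.09 in WT (adjusted p = 0.541) and 0.09 ± 0.10 in csa (adjusted p = 0.480). Scaling matters for these courses, because the factors of the leaf libraries ran from 0.63 to 1.41. On unscaled totals OsMST3 in SD went from 15.4 ± 3.05 CPM at 08:00 to 71.0 ± 12.9 CPM at 20:00, against 20.5 ± 4.07 and 60.5 ± 11.5 CPM with scaling (SD, n = 4).

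Genotype made no called difference to the leaf transporters. In csa against WT 0.493% of genes were called in SD, 3.42% in LD and 0.294% for the change between photoperiods, and none of the 3 genes was. OsMST3 averaged 41.1 ± 19.0 CPM in WT and 33.7 ± 13.0 CPM in csa in SD and 37.1 ± 13.0 and 31.4 ± 11.8 CPM in LD (SD, n = 12), with differences of −0.24 ± 0.09 (adjusted p = 0.438) and −0.25 ± 0.10 (adjusted p = 0.158). The 12 libraries of a group span the collection times, so the SD includes the daily course. OsMST4 differed by 0.16 ± 0.11 in SD (adjusted p = 0.708) and 0.10 ± 0.11 in LD (adjusted p = 0.714), and OsMST6 by −0.02 ± 0.13 (adjusted p near 1) and −0.05 ± 0.14 (adjusted p = 0.932). Without the libraries of 12:00 none of these passed the threshold. The differences were then −0.33 in SD and −0.32 in LD for OsMST3 (adjusted p = 0.151 and 0.180), 0.02 and 0.16 for OsMST4 (0.990 and 0.619) and −0.09 and 0.25 for OsMST6 (0.868 and 0.515). Over all genes 266 were then called in SD, 327 in LD and 29 for the change between photoperiods, against 109, 756 and 65 with them. Leaving out WT LD 08:00 replicate 2 brought OsMST3 in LD past it (−0.32, adjusted p = 0.0195). The rises of OsMST3, OsMST4 and OsMST6 in csa anthers in SD thus had no called counterpart in flag leaves, though the 2 tissues were not tested against each other.

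Likeness in leaves followed the daily courses, which all 48 libraries share. OsMST4 was most like OsSWEET3b (r = 0.88) and OsSWEET2b (r = 0.86), and 101 of 22094 genes had r above 0.9 with it. OsMST6 was most like OsCIN1, a cell wall invertase (r = 0.78), and the hexokinase OsHXK6 (r = 0.63), and OsMST3 most like CSA (r = 0.63) and OsHXK9 (r = 0.62). Of the 39 pathway genes 31 were tested in leaves. In csa against WT none was called in SD, where 0.493% of all genes were, while 2 rose in LD, where 3.42% were. These pathway counts come from the fit to all 48 libraries. They are not given without the SD libraries that lay on the side of the other genotype.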

How the data were processed

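Raw read counts per gene, deposited by the authors as a table for each tissue with 55986 rice loci, were used as they stand. Per the labels' protocols the input was total RNA extracted with TRIzol. Aligner, counting program, strand setting and genome build: not given in the sources used here. No coordinates or sequences are therefore printed. All 64 columns were matched to samples by their titles. The members and lists were chosen with earlier results of these data known. Symbols were written from memory and looked up by name in a RefSeq gene table, where 2 of the 6 members, 32 of the 39 pathway genes and 12 of the 26 markers were found, on the chromosome their locus number gives.

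Each tissue was fitted alone in R 4.3.3 with edgeR 4.0.16. filterByExpr kept 25203 anther and 22095 leaf genes. TMM gave scaling factors of 0.93 to 1.05 (anthers) and 0.63 to 1.41 (leaves), dispersions were trended, and quasi-likelihood F-tests compared group means over collection times, with Benjamini-Hochberg adjustment over all tested genes and a threshold of 0.05. Daily courses used a cosine and sine of 24 h. Likeness is Pearson r of log2(CPM + 0.5). All 6 members are named; of the pathway list, up to 4 genes with the lowest p in each anther contrast were eligible. Alternatives were DESeq2 1.42.0, another scaling (RLE), no filter on low counts, the replicate number as a block, each library left out, the leaf libraries of 12:00 left out, time as a factor for the daily course, and unscaled totals. Fits with a single library left out kept the trended dispersions estimated from all libraries of the tissue, so the omitted library still entered those. On simulated counts for csa against WT in SD, 77% of 100 genes changed by 1 log2 unit and 100% of those changed by 2 were recovered among 25203 genes. Recovery at the levels and spread of the 6 members was not tested. In that comparison their standard errors ran from 0.17 for OsMST6 to 0.87 for OsMST5.

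Replicate numbers were not taken to pair libraries. Replicate differences of pairs of groups correlated at −0.361 to 0.353 in anthers (28 pairs of groups) and −0.333 to 0.300 in leaves (276 pairs). Replicates were not duplicates, with a chi-square per gene of 8.26 or more (anthers) and 6.56 or more (leaves). Between 0.116 and 0.166 CPM in an anther library, and between 0.147 and 0.232 CPM in a leaf library, correspond to a floor of 3 counts, which covers counting error only. The anther libraries held 18.05 M to 25.96 M counts and the leaf libraries 12.91 M to 20.45 M.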

Additional observations from a re-analysis of the deposited data

Results flagged for a closer look

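In anthers of csa in SD, the 4 OsMST5 values were 0.722, 0.463, 0.454 and 0.410 CPM, and the highest, 0.722 CPM in replicate 1 of 16:00, lay apart from the others by more of their range than Dixon's critical value for 4 samples allows. It was the single such value among 24 groups of 4 examined. Chance flags about 1 group in 20, so 1 among 24 is not unusual. Each group joins libraries of both times, so its values are not replicates of a single condition. All 4 values rest on 8 to 14 counts.

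The genotype difference in anthers depended on the photoperiod for 3 transporters by a direct test, with log2 differences of 1.16 for OsMST6, −4.04 for OsMST7 and −1.32 for OsMST8. It depended on the collection time in SD for OsMST3 (1.63) and OsMST4 (1.64). In leaves the daily course of OsMST4 differed between SD and LD in WT by 1.36 log2 units.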

How the results depend on the processing

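Of the calls in the anther, those of OsMST3, OsMST4, OsMST6 and OsMST8 for csa against WT in SD, of OsMST5, OsMST6 and OsMST7 in LD, and of OsMST6, OsMST7 and OsMST8 for the interaction kept their direction and their side of the threshold under every alternative run, as did the leaf calls of OsMST4 at 08:00, 20:00 and 04:00. No result changed sign past the threshold. RLE scaling and DESeq2 moved the median gene by at most 0.05 and 0.06 log2 units. With no filter on low counts 32 member results became called, and the cause was not tested. With the replicate block OsMST3 for SD against LD in WT (−0.69, adjusted p = 0.0593), OsMST5 at 04:00 against 16:00 in csa in LD (3.94, 0.0585) and OsMST5 for csa against WT at SD 16:00 (−3.21, 0.0606) were lost and OsMST6 at 04:00 against 16:00 in WT in SD (−0.68, 0.0447) was gained, and no count over all genes moved by over 1.5 times.

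Counts of called genes moved as follows, with the cause not tested. With no filter they were 6186 for csa against WT at LD 04:00 (4039 as reported), 1103 for genotype by time in LD (0, with 2587 at an unadjusted p under 0.05), 505 and 1515 for csa against WT in leaves in SD and LD (109 and 756), 642 for the leaf interaction (65), and 4685 and 3488 for the change of daily course in WT and csa (3086 and 1548). DESeq2 gave 78 for genotype by time in LD, 194 and 1136 for csa against WT in leaves, 244 for the leaf interaction and 2392 for the change of course in csa. Without the libraries of 12:00 the leaf counts were 266 and 327 for csa against WT, 29 for the interaction and 1638 for the change of course in WT.

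Leaving out each library in turn gave, in anthers, 2157 to 4771 genes for the interaction, 4128 to 7559 for SD against LD in WT, 1239 to 4155 in csa, 3105 to 7889 for 04:00 against 16:00 in WT SD, 812 to 3065 in WT LD, 1046 to 4735 in csa SD and 2077 to 5329 in csa LD, 6797 to 10860 for csa against WT at SD 16:00, 5701 to 10721 at SD 04:00, 697 to 5826 at LD 16:00, 1160 to 4975 at LD 04:00, and 0 to 1 for genotype by time in LD. The leaf interaction ranged from 32 to 147. OsMST5 in csa in SD rests on 8 to 14 counts a library, and in leaves OsMST5, OsMST7 and OsMST8 were too low to test.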
